A study of Mus musculus with 6 samples.

Results

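The GATA factors are 6 transcription factors (Gata1 to Gata6) that bind the core letters GATA in DNA through zinc fingers. They were examined here together with the FOG cofactors Zfpm1 and Zfpm2, which bind to a GATA zinc finger, and with Trps1, a repressor that carries a finger of the GATA type. These 9 genes were taken by symbol from a table of 54418 genes, and all 9 were in it. Poly(A)-selected RNA had been sequenced from AKP organoids, epithelial cultures of a mouse line whose name the labels do not spell out. Values of single libraries are given below in the order of replicates 1 to 3. There were 3 libraries of the genotype Control and 3 of the genotype GATA6KO, and the comparison asks which transcripts differ with knockout of Gata6. The labels do not give the guide or lesion, how the Control organoids were treated, the ages or treatment of cultures, or whether replicates were separate clones or cultures. The p-values below thus reflect the spread between libraries alone, and that spread could be technical.

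As background, Gata4, Gata5 and Gata6 are the factors of endoderm, heart and gut, whereas Gata1, Gata2 and Gata3 are best known from blood cells. Gata2 and Gata3 also act in epithelia and trophoblast, and Gata3 is needed for the inner root sheath of the hair follicle. GATA factors often work in assemblies with the LIM-only proteins Lmo1 to Lmo4 and the bridging protein Ldb1, and FOG proteins bring the NuRD and CtBP corepressors to them. Members of the family can regulate each other's genes, and exchange of one member for another is well described in blood cells.

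Total estimated counts ran from 22973245 to 31328415 per library. The GATA6KO libraries differed more among themselves than the Control libraries did, and in GATA6KO replicate 2 chromosome 14, which holds Gata4, was low: its genes had a median log2 ratio to the Control mean of -0.90, against -0.08 and 0.05 in the other GATA6KO libraries. The mitochondrial share of counts was 1.85% to 1.88% in Control libraries and 2.07% to 2.84% in GATA6KO libraries. The organoid label was borne out by its markers: all 10 epithelial and intestinal marker genes were expressed, summing to 10648 to 11649 counts per 1000000 counts of a library (CPM) in Control and 7140 to 8418 CPM in GATA6KO. Markers of blood cells, where Gata1, Gata2 and Gata3 are also active, summed to 0.964 to 1.46 CPM in Control and 1.17 to 1.25 CPM in GATA6KO. Of those 19 markers 10 had no count in any library, among them Mpo and both globin genes of the list, and none had more than 24 counts. The 12 mesenchymal and endothelial markers summed to 1.01 to 1.27 CPM in Control and 1.1 to 1.5 CPM in GATA6KO, with at most 16 counts in any library for one gene.

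The promoters of the oppositely moving members Gata2 and Gata3 are shown first, with a promoter of the partner gene Ldb1, because these are the genes on which the results below turn. Each is the 250 bases before a RefSeq transcript start (GRCm38.p6, the assembly of mm10), 5′ to 3′ on the gene's strand. In the Gata2 and Gata3 windows the capitals mark CpG dinucleotides, and in the Ldb1 window they mark the GATA motif.
Gata2, chr6:88193641-88193890, plus strand: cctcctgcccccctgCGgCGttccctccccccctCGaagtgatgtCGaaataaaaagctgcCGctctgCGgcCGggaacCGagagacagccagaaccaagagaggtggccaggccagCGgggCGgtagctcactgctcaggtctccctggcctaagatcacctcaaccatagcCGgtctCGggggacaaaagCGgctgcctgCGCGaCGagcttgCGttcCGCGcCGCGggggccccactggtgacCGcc
Gata3, chr2:9878601-9878850, minus strand: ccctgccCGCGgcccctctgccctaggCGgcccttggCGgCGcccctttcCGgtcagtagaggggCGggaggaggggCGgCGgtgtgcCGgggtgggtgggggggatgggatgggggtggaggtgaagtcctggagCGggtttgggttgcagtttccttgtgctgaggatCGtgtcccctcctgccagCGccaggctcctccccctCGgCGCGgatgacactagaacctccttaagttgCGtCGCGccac
Ldb1, chr19:46037071-46037320, minus strand: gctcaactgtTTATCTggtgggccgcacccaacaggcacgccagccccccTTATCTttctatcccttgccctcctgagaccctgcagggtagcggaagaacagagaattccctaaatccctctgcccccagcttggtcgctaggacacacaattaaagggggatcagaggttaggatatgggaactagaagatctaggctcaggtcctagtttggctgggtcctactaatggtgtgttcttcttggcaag
The motif searched was AGATAA or AGATAG or TGATAA or TGATAG on either strand, with overlapping matches counted at each start. It was in 26.5% of 32851 RefSeq promoter windows of this length. None of the 6 windows found for 5 members (Gata1, Gata2, Gata3, Gata5 and Zfpm1) held it, so these letters were absent from those windows and nothing further follows about binding. Of 3 Ldb1 windows the one shown was the only one with the motif. It held 2 matches, beginning 240 and 200 bases before the start, and 6.4% of all windows held 2 or more. The windows of Lmo1, another partner gene described below, held none. Nothing follows about binding at Ldb1 or Lmo1 either. The Gata2 and Gata3 windows shown held 22 and 19 CpG dinucleotides with a GC content of 67.2% and 70%, against medians of 6 and 52.4% over all windows. Another Gata2 window, chr6:88198414-88198663, is not shown. It lies within Gata2 exons and held 24 CpG dinucleotides with a GC content of 74%. Which of these starts was used in the organoids was not tested.

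The targeted gene came first. Gata6 (ENSMUSG00000005836, chromosome 18, 11052064 to 11085635), the GATA factor of the intestinal epithelium, was counted 577, 669 and 840 times in the Control libraries against 427, 489 and 247 times in the GATA6KO libraries. It was lower in every GATA6KO library and lowest in replicate 3, and the groups did not overlap. Scaled by TMM, a factor that makes libraries comparable, the Control level was 25.5 ± 2.42 CPM and the GATA6KO level 12.8 ± 4.09 CPM (SD, n = 3 each). Gata6 fell by 0.99 on the log2 scale (SE 0.25, edgeR adjusted p = 0.0486). Transcripts were thus still counted at 0.323 to 0.629 of the mean Control level, and counts of a whole gene do not show whether those transcripts carry a lesion. The label GATA6KO was in this respect borne out in direction only.

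Gata2 rose. Gata2 (ENSMUSG00000015053, chromosome 6, 88193891 to 88207032), a factor of blood progenitors and of several epithelia, was counted 60, 77 and 99 times in the Control libraries against 626, 510 and 205 times in the GATA6KO libraries. Every GATA6KO library was above every Control library, with replicate 3 the lowest of the GATA6KO libraries. The scaled level went from 2.87 ± 0.377 to 14.8 ± 7.23 CPM (SD, n = 3 each), and GATA6KO replicates 1 to 3 stood at 7.30, 5.83 and 2.39 times the mean Control level. This is a log2 fold change of 2.37 (SE 0.41, edgeR adjusted p = 0.0167). No sequence of 31 bases in the Gata2 transcripts of GENCODE M21 occurs in a transcript of another gene, so its counts could not have been shared with Gata3 or Gata6 through identical stretches of that length.

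Gata3 fell. Gata3 (ENSMUSG00000015619, chromosome 2, 9857078 to 9890034), a factor of T cells, luminal epithelia and the hair follicle, was counted 225, 278 and 393 times in the Control libraries against 112, 52 and 22 times in the GATA6KO libraries. The groups did not overlap, and the GATA6KO libraries differed from each other, at 0.345, 0.157 and 0.0675 of the mean Control level. The scaled level went from 10.9 ± 1.94 to 2.06 ± 1.54 CPM (SD, n = 3 each), a log2 fold change of -2.40 (SE 0.55, edgeR adjusted p = 0.0365). Of the 31-base sequences of its transcripts 3.83% also occur in other genes, mostly in the antisense gene Gm13256 that overlaps it, which had 0 counts in all 6 libraries. Of the T-cell markers, Cd3g and Cd4 had 0 counts throughout, while Cd3d was counted 0, 1 and 1 times in Control and 2, 4 and 2 times in GATA6KO, and Cd3e 0, 1 and 2 against 1, 2 and 7 times. The Cd3d groups did not overlap, and the part of such low counts in the level of Gata3 was not tested.

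**Figure D1:**
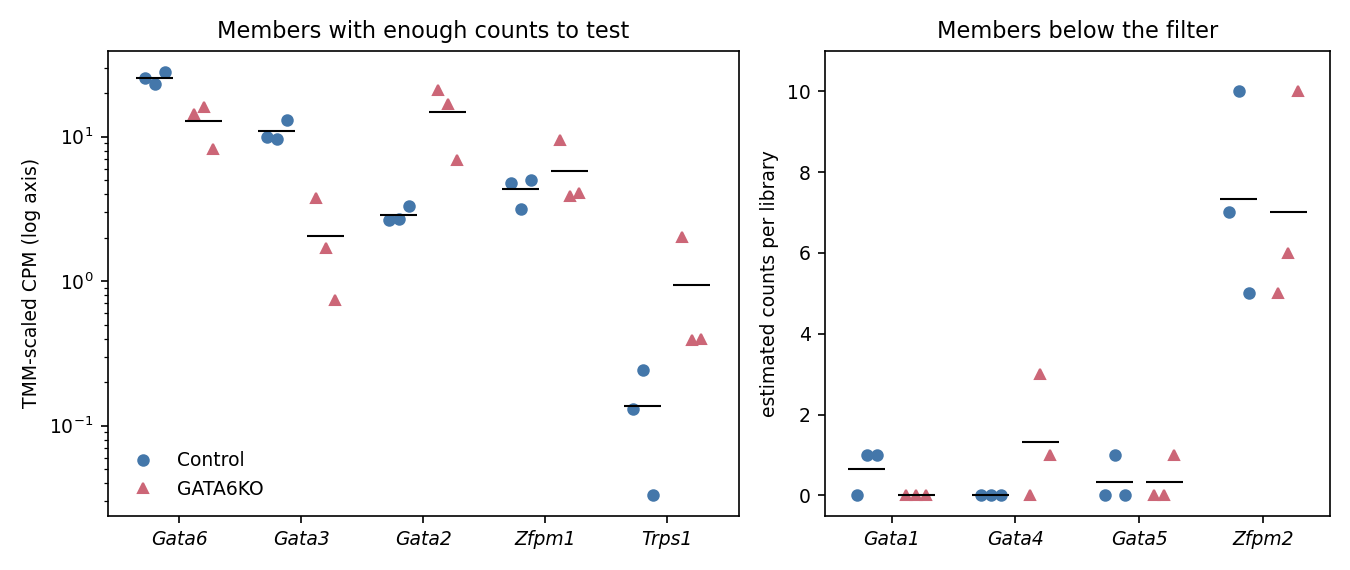
Levels of the 9 genes in every library (points, circles for Control and triangles for GATA6KO, black lines at the group means): TMM-scaled CPM on a log axis for the 5 tested genes at left, and estimated counts for the 4 genes below the filter at right. Gata6 and Gata3 lie lower and Gata2 higher in all 3 GATA6KO libraries, and none of the 4 genes at right exceeds 10 counts.

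These calls rested on all 3 Control libraries, as many calls over all genes did. Of all genes tested, 2.79%, 2.55% and 2.18% were called without Control replicate 1, 2 or 3, against 12.4% with all libraries. Without Control replicate 1, 2 or 3 the edgeR adjusted p was 0.0828, 0.085 and 0.0826 for Gata2, 0.11, 0.109 and 0.143 for Gata3, and 0.149, 0.128 and 0.181 for Gata6, while the fold changes kept their direction and moved by less than their SE. Without GATA6KO replicate 2, the library with low chromosome 14, the log2 fold changes were 2.27 for Gata2 (adjusted p = 0.0271), -2.28 for Gata3 (adjusted p = 0.0646) and -1.18 for Gata6 (adjusted p = 0.0305). An exact 2-sided permutation test of the 3 against 3 levels gave p = 0.1 for each of these genes, the smallest this design allows.

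Of the 5 members with enough counts to test, 3 were called, against 12.4% of the 14714 genes tested (6.92% higher and 5.47% lower in GATA6KO). The called members include Gata6, the target of the knockout, whose fall is no finding about the rest of the family. The groups did not overlap for 4 of the 5, as for 40.8% of all genes tested. Because 4 members were too low to test and Trps1 passed the filter only through its GATA6KO libraries, these counts describe the tested genes and not the family.

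**Figure D2:**
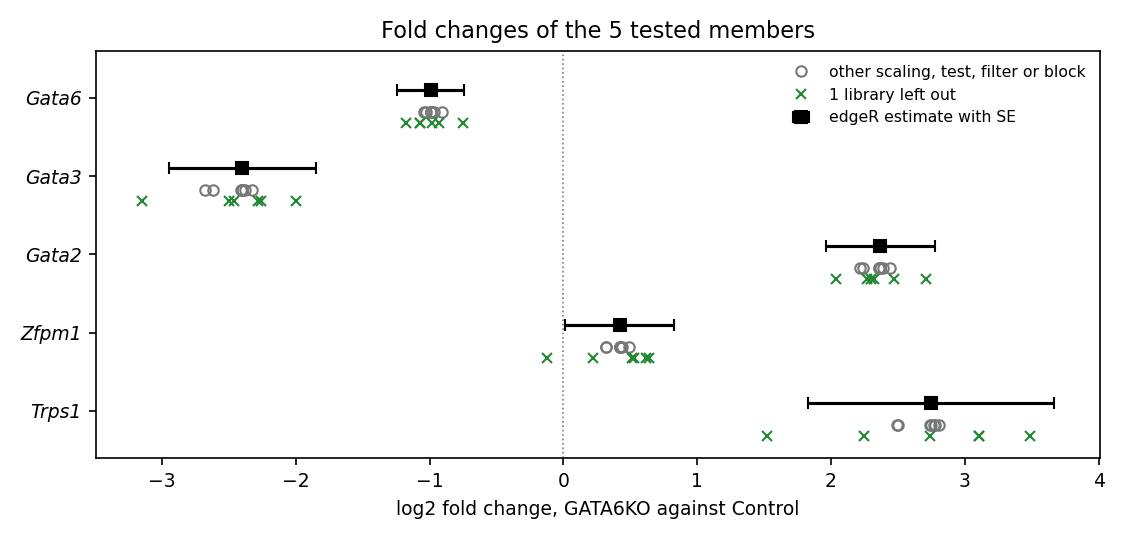
Log2 fold changes (GATA6KO against Control, x axis) of the 5 tested members: squares are the edgeR estimates with SE, open circles the estimates under other scalings, tests, filters or a replicate block, and crosses those with 1 library left out. Gata6, Gata3 and Gata2 stay on their side of 0 in all of these, whereas Zfpm1 crosses to -0.12 without GATA6KO replicate 1.

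By group means alone, the most abundant GATA factor transcript per length differed between Control and GATA6KO. Levels of different genes were compared as scaled CPM per kilobase of merged exon length. In Control the order was Gata6 at 3.92 ± 0.372, Gata3 at 2.73 ± 0.488 and Gata2 at 0.531 ± 0.0699 CPM per kilobase (SD, n = 3). The ranges of these 3 genes over the Control libraries did not overlap. In GATA6KO Gata2 stood first at 2.75 ± 1.34, followed by Gata6 at 1.97 ± 0.628 and Gata3 at 0.518 ± 0.386 CPM per kilobase (SD, n = 3). Gata2 and Gata6 did not differ beyond their spread there: the values were 3.88 and 2.19 in replicate 1, 3.10 and 2.46 in replicate 2, and 1.27 and 1.27 in replicate 3. The order of means was the same in both groups when the longest annotated transcript gave the length.

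As a share of the summed GATA factor level per length, Gata2 made up 7.11%, 7.60% and 7.44% of it in the Control libraries, against 55.3%, 51.5% and 46.3% in the GATA6KO libraries. The 3 Control libraries were within 1 percentage point of each other, and every GATA6KO library lay far above them. The share of Gata3 went from 37.8% ± 2.01 to 9.10% ± 3.75 and that of Gata6 from 54.6% ± 2.19 to 39.5% ± 7.60 (SD, n = 3 each). Shares of one total depend on each other, so a larger Gata2 share alone lowers the others. The summed level itself was 6.85, 6.51 and 8.22 CPM per kilobase in Control and 7.01, 6.01 and 2.74 in GATA6KO, where the groups overlapped and replicate 3 was low. In such bulk samples, fewer cells with a transcript and less of it per cell cannot be told apart.

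**Figure D3:**
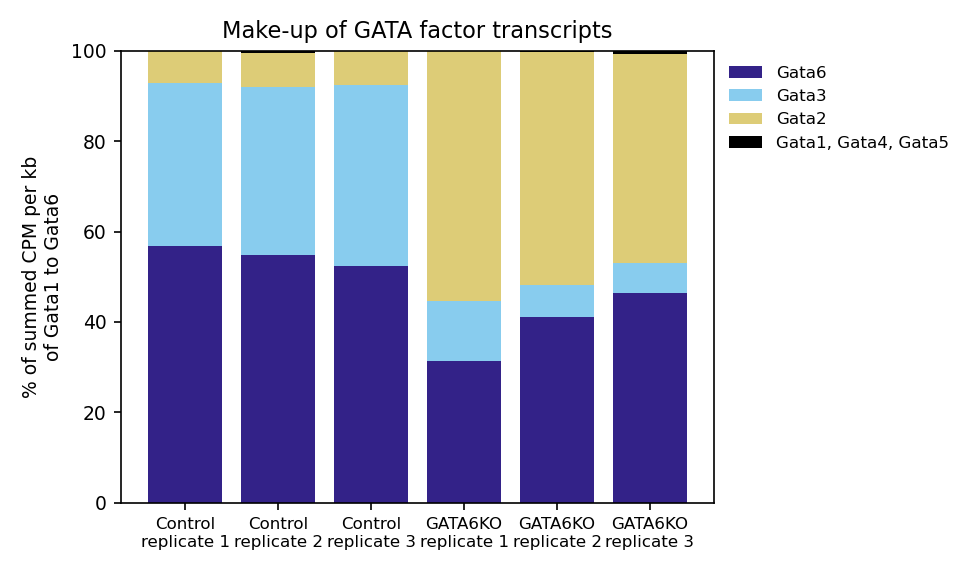
Make-up of GATA factor transcripts in each library: stacked bars give each gene's percent of the summed CPM per kilobase of Gata1 to Gata6. The Gata2 segment takes 7.11% to 7.60% of each Control bar and 46.3% to 55.3% of each GATA6KO bar.

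Gata1, Gata4 and Gata5 were close to absent. Gata1, the erythroid factor, had 0, 1 and 1 counts in the Control libraries and 0 in every GATA6KO library. Gata4, the partner of Gata6 in the proximal gut and heart, had 0 counts in every Control library and 0, 3 and 1 in the GATA6KO libraries. Gata5 had 1 count in Control replicate 2, 1 in GATA6KO replicate 3 and 0 in the rest. A count of 0 allows up to 3 counts, or 0.0984 to 0.131 CPM in these libraries, for counting error only. No rise of Gata1, Gata4 or Gata5 was therefore detectable at this depth, and Gata4 lies on the chromosome that was low in GATA6KO replicate 2.

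The FOG cofactors were not called. Zfpm1 (ENSMUSG00000049577, chromosome 8, 122282141 to 122337251), the FOG protein of blood cells, was counted 109, 91 and 150 times in the Control libraries against 282, 118 and 121 times in the GATA6KO libraries. GATA6KO replicate 1 stood above all other libraries, and the other two GATA6KO libraries lay within the Control range. Its log2 fold change of 0.42 (SE 0.41, edgeR adjusted p = 0.513) became -0.12 without GATA6KO replicate 1. A readthrough gene, Gm20388, spans the Zfpm1 locus on the same strand, but no 31-base sequence of Zfpm1 occurs in transcripts of another gene. Zfpm2, the FOG protein of heart and gonad, was counted 7, 10 and 5 times in the Control libraries against 5, 6 and 10 times in the GATA6KO libraries, a like range in both groups and too few to test.

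Trps1 was low and uneven. Trps1 (ENSMUSG00000038679, chromosome 15, 50654752 to 50890463), which is mutated in a human syndrome with sparse hair, was counted 3, 7 and 1 times in the Control libraries against 60, 12 and 12 times in the GATA6KO libraries. The groups did not overlap, but replicate 1 stood far above the other GATA6KO libraries. The log2 fold change of 2.75 (SE 0.92) was not called by edgeR (adjusted p = 0.0983). DESeq2, a test that makes more calls on these libraries (22% of genes), gave adjusted p = 0.0464. GATA6KO replicate 1 was thus the highest library for Gata2, Zfpm1 and Trps1, and it was also the highest of the GATA6KO libraries for Gata3.

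Most annotated genes that overlap a GATA factor were nearly silent. The antisense gene of Gata5 and the 3 genes that overlap Gata3 had at most 1 count in any library. The divergent noncoding gene 1010001N08Rik, which RefSeq also lists as LncGata6, overlaps the start of Gata6 on the opposite strand. It was counted 18, 20 and 30 times in the Control libraries against 20, 29 and 2 times in the GATA6KO libraries. It was lowest in GATA6KO replicate 3, the library with the lowest Gata6, which was also the lowest of the GATA6KO libraries for Gata2 and Gata3. Without stated use of strand in counting, reads from the short stretch these genes share (0.974% of the 31-base sequences of Gata6) cannot be assigned to one of them.

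Lmo1, Lmo2 and Ldb1, which form assemblies with GATA factors, rose. Of 24 coactivators and binding partners 14 could be tested, of which these 3 rose and 1 fell (Nfatc4, a calcium-responsive factor), against 6.92% and 5.47% of all genes tested, with a list median log2 fold change of 0.10 against 0.02 over all genes tested. Lmo1 passed the filter on low counts only through its GATA6KO libraries and Nfatc4 only through its Control libraries, so the count of calls describes the genes that passed and not the list, and a filter of 1 CPM in every library of a group gave 2 calls in place of 4. Ldb1 (ENSMUSG00000025223), the protein that bridges LIM-only proteins to other complexes, was counted 1059, 1275 and 1460 times in the Control libraries against 2415, 2466 and 2587 times in the GATA6KO libraries. The GATA6KO libraries were close together, at 1.74, 1.74 and 1.86 times the mean Control level (log2 fold change 0.83, SE 0.09, edgeR adjusted p = 0.00315). Ldb1 was called with each of the 6 libraries left out in turn, at adjusted p of up to 0.0353.

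Lmo2, the LIM-only protein that joins GATA factors to Ldb1 in blood progenitors and endothelium, was counted 82, 105 and 71 times in the Control libraries against 843, 463 and 1319 times in the GATA6KO libraries. No GATA6KO library came near the Control range, and replicate 3 was the highest here although it was the lowest for Gata2. Lmo2 rose by a log2 fold change of 3.19 (SE 0.42, edgeR adjusted p = 0.00668) and was called with each library left out in turn, at adjusted p of up to 0.049. Lmo1, a related protein known from neural tissue and leukaemia, was counted 1, 2 and 0 times without the knockout and 106, 44 and 25 times with it. Its ratio of summed scaled counts was 52.7, with a 95% interval for counting error alone of 17.7 to 258 (exact Clopper-Pearson on the split of the counts), and the edgeR adjusted p was 0.0141. That call was lost without any 1 of the Control libraries, at adjusted p of up to 0.0732.

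Other blood factors ranged from silent to well expressed. Tal1 and Lyl1, helix-loop-helix proteins of the blood assembly, had 0 counts in all 6 libraries, as had Nkx2-5, Tbx5 and Hand2, cardiac partners of Gata4. Fli1 and Spi1 had at most 1 count in any library and Klf1, an erythroid factor, at most 10. Runx1, a factor of blood stem cells that is also found in epithelia, stood at 38.5 ± 1.9 CPM without and 42 ± 7.69 CPM with the knockout (SD, n = 3 each; log2 fold change 0.13, SE 0.15, edgeR adjusted p = 0.587). Lmo4, the LIM-only protein common in epithelia, stood at 45.6 ± 1.95 CPM without and 45.8 ± 11.4 CPM with the knockout (SD, n = 3 each; log2 fold change 0.01, SE 0.17, edgeR adjusted p = 0.983). Lmo4, Runx1, Klf1, Fli1, Spi1 and the 5 silent genes were chosen for naming after their values were seen. Nfatc4, also named for its call although it was below 1 CPM, was counted 19, 13 and 16 times without the knockout and 3, 2 and 7 times with it (edgeR adjusted p = 0.0475). It lies on chromosome 14, and its call was lost without any Control library and without GATA6KO replicate 1 or 2 (highest adjusted p 0.173).

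Among the corepressors that FOG proteins recruit, 1 was called. All 15 NuRD and CtBP genes were tested, with 1 higher (6.67%, near the 6.92% of all genes tested) and 0 lower, and a median log2 fold change of 0.11. The gene that rose was Hdac1, a histone deacetylase, which went from 115 ± 2.06 up to 167 ± 21.8 CPM in GATA6KO (n = 3 each, SD; log2 fold change 0.54, SE 0.11, edgeR adjusted p = 0.0284), and its call was lost without any 1 of the Control libraries (adjusted p of up to 0.135). At an unadjusted p under 0.05 there were 7 of the 15, and DESeq2 called 6, against 22% of all genes called by DESeq2. The share of all genes at that unadjusted p was not counted, so nothing is drawn from the 7. Of 7 tested genes that share a GATA-type finger outside the family, edgeR called 0, with 1 at an unadjusted p under 0.05, 1 called by DESeq2 and 0 by limma-voom. Mta1, Mta2, Mta3, Gatad2a and Gatad2b were in both this list and the NuRD and CtBP list, so the counts are not separate observations. The most abundant of these were Rere, at 318 ± 17.7 and 320 ± 74.3 CPM, and Mta2, a NuRD subunit, at 195 ± 5.33 and 211 ± 6.86 CPM in Control and GATA6KO (SD, n = 3 each).

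**Figure D4:**
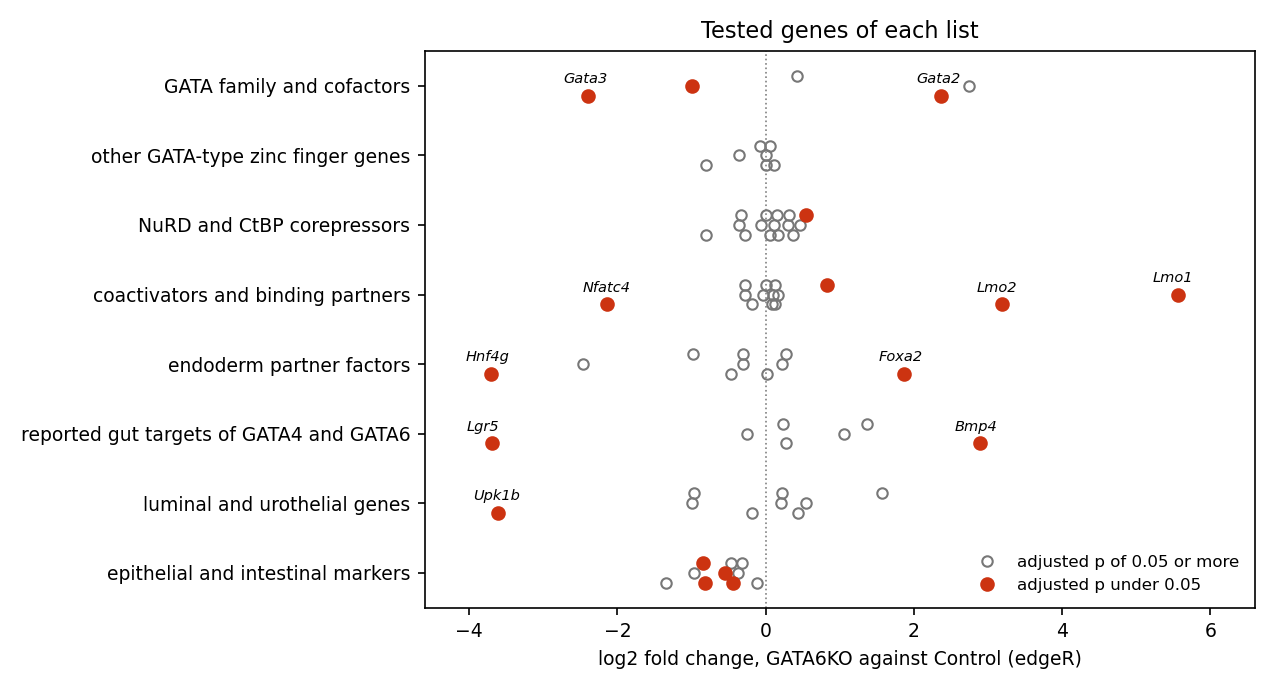
Log2 fold changes (GATA6KO against Control, x axis) of the tested genes of 8 lists, with filled points for an edgeR adjusted p under 0.05 and open points for the rest. Lmo1, Lmo2 and Bmp4 lie furthest to the right, and Hnf4g, Lgr5 and Upk1b furthest to the left.

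Among endoderm factors that bind beside GATA factors in gut, Foxa2 rose and Hnf4g fell. They were the 2 called of 10 tested, against 12.4% of all genes tested, and the list median log2 fold change was -0.30. The nuclear receptor Hnf4g was counted 56, 67 and 71 times without the knockout and 10, 1 and 5 times with it (edgeR adjusted p = 0.0136), so it passed the filter only through its Control libraries. The forkhead factor Foxa2 was counted 199, 245 and 244 times without the knockout and 1092, 609 and 1061 times with it (edgeR adjusted p = 0.00665). The groups did not overlap for either gene. Hnf4g was not called without any 1 of the Control libraries (adjusted p of up to 0.0722), and Foxa2 was not called without Control replicate 3 (adjusted p = 0.0505).

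Few of the gut genes reported elsewhere as targets of Gata4 or Gata6 were expressed in these organoids. Of 17 such genes 7 could be tested, of which 1 rose and 1 fell, against 12.4% called of all genes tested. Lgr5, the stem cell receptor, stood at 0.0897, 0.108 and 0.0333 of the mean Control level in GATA6KO replicates 1 to 3 (edgeR adjusted p = 0.00445). Replicate 3, with the least Gata6, had the least Lgr5. It was also the lowest of the GATA6KO libraries for Gata2 and Gata3, and a link of Lgr5 to the Gata6 level was not tested. Bmp4, a ligand of the BMP pathway, stood at 5.56, 14.4 and 2.27 times the mean Control level (edgeR adjusted p = 0.0372). It was highest in replicate 2 although it lies on chromosome 14, and its call was lost without any 1 of the Control libraries (adjusted p of up to 0.163). Of the absorptive genes in the list, described here after their values were seen, Lct, Sis, Fabp1, Fabp6, Apoa1, Apoa4 and Apob had at most 12 counts in any library. Fabp2, a fatty acid-binding protein, was counted 38, 33 and 33 times without the knockout and 59, 166 and 81 times with it, where the groups did not overlap but edgeR made no call (log2 fold change 1.37, SE 0.44, adjusted p = 0.0875). The bile acid transporter Slc10a2 was counted 14, 12 and 8 against 2, 31 and 14 times, in overlapping ranges.

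Among genes of tissues where Gata3 is prominent, few were called by edgeR. Of 9 tested luminal and urothelial genes it called 0 higher and 1 lower (11.1%), near the 12.4% called of all genes tested. This was Upk1b, a urothelial membrane protein, counted 243, 336 and 285 times without the knockout and 20, 27 and 31 times with it (log2 fold change -3.61, SE 0.24, edgeR adjusted p = 0.0012), called with each library left out in turn. DESeq2 called 5 of the 9 luminal and urothelial genes, against 22% of all genes, and limma-voom called 1. Pparg and Elf3 were lower (log2 fold changes -1 and -0.97) and Upk3a and Foxa1 higher (1.57 and 0.22), none of them called by edgeR. Of 9 inner root sheath genes, where Gata3 acts in hair, 8 were too low to test. The remaining one, Tchh, which encodes trichohyalin, stood at 16.2 ± 0.739 CPM without and 14 ± 7.77 CPM with the knockout (SD, n = 3 each; edgeR adjusted p = 0.758). Neither DESeq2 nor limma-voom called it, and 0 of 1 had an unadjusted p under 0.05.

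Epithelial markers were lower as well. All 10 epithelial and intestinal markers were tested, and all had a negative log2 fold change, with a median of -0.51. By edgeR 0 were called higher and 4 lower, against 6.92% and 5.47% of all genes tested. DESeq2 called 9 of the 10, against 22% of all genes, and limma-voom called 5. The largest falls were those of Krt20 and Elf3 (log2 fold changes -1.34 and -0.97), which edgeR did not call (adjusted p = 0.0643 and 0.118). The cadherins Cdh17 and Cdh1 measured 741 ± 70.5 and 739 ± 22.4 CPM in Control and 419 ± 32.9 and 545 ± 26.4 CPM in GATA6KO (SD, n = 3 each; edgeR adjusted p = 0.00746 and 0.0246). The simple keratins Krt18 and Krt8 fell by 0.84 and 0.55 on the log2 scale (edgeR adjusted p = 0.00971 and 0.0256). Cdh1 and Krt8 were not called without any 1 of the Control libraries (adjusted p of up to 0.127), and Cdh17 and Krt18 not without Control replicate 2 or 3 (adjusted p of up to 0.0614). The part of this lower marker level in the changes of Gata2, Gata3 and Gata6 was not tested.

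Finally, the genes most like each called member across the 6 libraries were listed, by the root-mean-square difference of log2 ratios to the Control mean, among 9154 genes with a mean of at least 10 CPM. Nearest to Gata6 were Tinagl1, a matrix protein, Tbc1d2, a regulator of Rab GTPases, and Tnfrsf23, a decoy receptor, at differences of 0.09, 0.10 and 0.10. All 4 genes were lowest in GATA6KO replicate 3. Nearest to Gata3 were Areg, an EGF receptor ligand, Acap1, which acts on Arf GTPases, and Pqlc3, at differences of 0.35, 0.37 and 0.37, and each of these was also lowest in replicate 3 and highest of the GATA6KO libraries in replicate 1. Nearest to Gata2 were Prom2, a membrane protein of protrusions, the homeobox gene Hoxb8 and Fer1l4, at differences of 0.28, 0.32 and 0.32. Their lowest GATA6KO value was again in replicate 3. Such likeness over 6 libraries takes in the group difference by which these members had been called. The genes were also picked for likeness in these same libraries, so their shared order among the GATA6KO libraries follows largely from the choice.

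**Figure D5:**
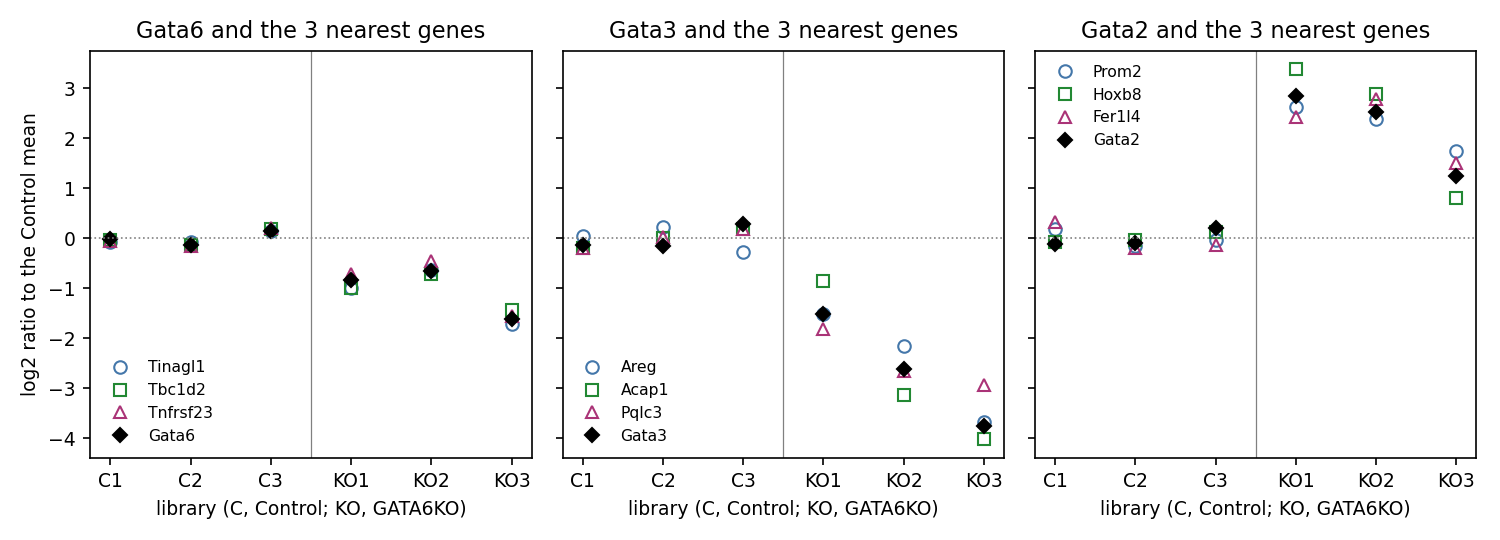
Log2 ratio to the Control mean (y axis) in each library for Gata6, Gata3 and Gata2 (black diamonds) and the 3 genes nearest to each (open symbols). In GATA6KO replicate 3 the ratio is -1.62 for Gata6, -3.75 for Gata3 and 1.24 for Gata2, the lowest value of each gene among the 6 libraries for Gata6 and Gata3 and among the GATA6KO libraries for Gata2.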

How the data were processed

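Values are estimated counts per gene that the authors deposited as whole numbers, with no scaling between libraries. The submitters' processing notes list Salmon 1.3.0 and mm10 and say nothing of their role. Which annotation was used, how transcripts were summed to genes and whether strand was used are not stated in the labels. Ensembl identifiers were matched to GENCODE M21 symbols (54096 of 54418). No rounding was needed.

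edgeR 4.0.16 (R 4.3.3) tested GATA6KO against Control with TMM scaling and a robust quasi-likelihood fit, without a replicate block. filterByExpr left 14714 genes, and Benjamini-Hochberg adjustment ran over all of them, with a threshold of 0.05. The SE is the absolute log2 fold change divided by the square root of F. limma 3.58.1 and DESeq2 1.42.0 gave alternatives. The fitting code was tested on simulated counts. Samples were grouped by title.

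The 9 members and 10 further lists were chosen with earlier results of these data known. Some of the further lists share genes, such as Foxa1, Elf3 and Cdx2. Named were all members, up to 4 called genes per list (group mean of 1 CPM or more; otherwise the 2 most abundant tested), and the 3 genes most like Gata6 and each called member, leaving out predicted and clone-named genes. Exceptions are stated where they occur. Promoters are from RefSeq (5 of 9 members matched), and no Gata6 sequence is shown. Shared stretches are 31-base sequences in GENCODE M21 transcripts.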

Additional observations from a re-analysis of the deposited data

How the results depend on the processing

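Under the other scalings, tests and filters the log2 fold changes of the 5 tested members kept their direction wherever they were tested (Trps1 was not tested with the stricter filter), and 3 calls changed. Gata6 was not called with the library total alone (-0.91, adjusted p = 0.0573), nor Gata3 with no filter (-2.38, adjusted p = 0.0583), while DESeq2 called Trps1 (2.78, adjusted p = 0.0464). Same-numbered libraries showed no common deviation (correlations -0.01, 0.07 and -0.09, against -0.15 to 0.16 for differently numbered ones). With so few libraries this cannot decide whether the samples were paired, and the labels do not say. The replicate block gave 2.24 for Gata2 (adjusted p = 0.0513), -2.62 for Gata3 (adjusted p = 0.0653) and -1.03 for Gata6 (adjusted p = 0.0915). With this block edgeR called 0 members, 4 of them at an unadjusted p under 0.05, and 827 of all genes, with 0 NuRD and CtBP genes and 2 epithelial markers. DESeq2 called 3238 genes in all.

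With 1 library left out, the log2 fold change ran from 2.04 to 2.71 for Gata2, from -3.15 to -2.00 for Gata3 and from -1.18 to -0.75 for Gata6. It ran from -0.12 to 0.64 for Zfpm1, reversing without GATA6KO replicate 1. Calls ran from 332 (without Control replicate 3) to 4360 (without GATA6KO replicate 1) of all genes, and from 0 to 3 of the members, 0 being without Control replicate 1, 2 or 3, where 3, 4 and 3 members had an unadjusted p under 0.05 by edgeR. The share of all genes at that unadjusted p was not counted, and the causes were not tested.

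List counts were small and moved with the setting, as did the share of all genes called. That share was 12.4% in the main fit and 22% with DESeq2. With 1 library left out it ran from 2.18% (without Control replicate 3) to 28.8% (without GATA6KO replicate 1). The other GATA-type finger genes went from 0 to 1 called with RLE scaling, DESeq2 and the stricter filter, and from 0 to 1 with 1 library left out. The NuRD and CtBP genes went from 1 to 2 with RLE scaling, no filter or the stricter filter, to 3 with the library total alone and to 6 with DESeq2, and from 0 to 4 with 1 library left out. The coactivators and partners went from 4 to 2 with the stricter filter, which tests fewer genes, and from 2 to 5 with 1 library left out. The endoderm factors went from 2 to 6 with DESeq2 and 4 with limma-voom, and from 0 to 4 with 1 library left out. The gut targets went from 2 to 1 with limma-voom or no filter, and from 1 to 3 with 1 library left out. The luminal and urothelial genes went from 1 to 5 with DESeq2, and from 1 to 3 with 1 library left out. The epithelial markers went from 4 to 9 with DESeq2, and from 0 to 9 with 1 library left out. Lengths of the longest transcript raised the levels per kilobase without changing the order of means. Depth limits Gata1, Gata4, Gata5 and Zfpm2, which had at most 10 counts in a library.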
